A study of Mus musculus with 12 samples.

Results

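The comparison described here sets unstressed p53-knockout mouse embryonic stem cells against unstressed wild-type cells, both given the vehicle only. Its members are 4 of the 12 samples of the series: 2 wild-type vehicle libraries and 1 vehicle library from each of 2 p53-knockout lines. E14 is a mouse embryonic stem cell line. It was grown without feeder cells on gelatin, in serum-containing medium with leukemia inhibitory factor and the inhibitors PD0325901 and CHIR99021, which hold the cells in the naive state. The vehicle groups received DMSO for 6 h followed by fresh medium, while the drug groups of the series received 1 uM doxorubicin for the same time. A Dux-knockout vehicle group, also in E14 cells, serves below as a second edited genotype in which p53 was not the target. The 2 knockout lines are called line 1 and line 2, as numbered in the labels, and the 2 wild-type libraries, whose columns carry no number, are called a and b. The kind of edit made at the p53 gene and the derivation of the lines are not given in the sources used here. Stable lines of the study were selected with puromycin, Geneticin or blasticidin, without a statement of which line had which.

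p53 is a transcription factor that is kept scarce in unstressed cells by Mdm2 and Mdm4 and is stabilised by DNA damage. It binds DNA as a tetramer, at a pair of decameric half-sites, and switches on genes for cell-cycle arrest, cell death, metabolism and repair, together with the genes of its own inhibitors. Embryonic stem cells hold comparatively much p53 protein. A difference between unstressed knockout and unstressed wild-type cells therefore bears on which of these genes depend on p53 in the absence of added damage.

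Poly(A)-selected RNA was sequenced, and the 4 libraries held 27059180 to 32807053 counts assigned to genes. Values are given as CPM, counts scaled to library size, after adjustment of that size by trimmed mean of M values (TMM). A gene was called at an edgeR quasi-likelihood adjusted p under 0.05 over 28643 genes. Counts were made over whole gene spans without use of strand, so overlapping genes cannot be told apart, and only between 26.4% and 33.4% of counts of 500 or more were odd, so single counts are not independent molecules. Fewer cells of a type and less RNA per cell cannot be told apart in such bulk samples. Of the 10 fibroblast markers, 7 were tested and 0 called (edgeR). Of the 7, 3 lay above wild type in both lines and 1 under (20.8% and 21.3% of all genes did). The median log2 difference was 0.53. Dcn and Lum had 0 counts in all 4 libraries. Col1a2 had 2 counts over the wild-type libraries and 20 over the knockout libraries. The summed level of the 10 markers was 639 and 671 CPM in wild type, 657 in line 1, 1337 in line 2 and 1873 in the Dux-knockout library. Most of it was Fn1, which is not restricted to fibroblasts (628 and 659 CPM in wild type, 637 in line 1 and 1323 in line 2). The part of the markers in the results was not tested. The pluripotency gene Pou5f1 lay between 899 and 1001 CPM in the 4 libraries. The wild-type duplicates come from 1 line and the knockout duplicates from 2 lines. The loss of p53 and other differences between lines therefore cannot be told apart. The p-values rest on the spread within groups over all count libraries used, drug groups included, not on the 4 vehicle libraries alone. A fit to only those 4 libraries called 24 genes lower and 1 higher, against 214 and 40 in the main fit (edgeR).

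The targeted gene was examined first. Trp53 (chromosome 11, 69580359 to 69591873, mm10) had 193 and 159 CPM in wild-type libraries a and b, 72.4 CPM in line 1, 39.8 CPM in line 2 and 243 CPM in the Dux-knockout library. Both knockout libraries were under both wild-type libraries, but transcripts were still counted in each. The fitted log2 difference was -1.65 with a standard error (SE) of 0.37 and did not pass the test (edgeR adjusted p = 0.084; DESeq2 adjusted p = 0.00043). Each knockout line gave a vehicle and a drug library, and with a replicate block for the lines Trp53 was called (edgeR adjusted p = 1.7e-06). The block takes out of the error the difference between lines that vehicle and drug libraries share. Its p-values, here and below, therefore do not measure the spread between the knockout lines. An edit that leaves the transcript in place is not checked by these counts, so the label is not tested by the level alone.

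The motif that p53 binds was looked up in RefSeq promoter windows (GRCm38.p6, 250 bases before to 50 bases after a start), because the members of the p53 lists described below are grouped by what p53 is known to switch on. The windows covered 59 of the 72 genes of these lists with Trp73. The half-site reads the same on both strands, so both were searched at once. A half-site of 10 bases without mismatch was found in 7 of the 23 genes with a window that were called lower (30.4%), in 11 of the 36 that were not called (30.6%), in 9.55% of all genes with a window and in 8.36% of all 32851 windows. The 7 genes have these half-sites, shown with their flanks 5′ to 3′ along the gene's strand and with the half-site in capitals.
Mdm2: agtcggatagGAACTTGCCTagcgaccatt
Ppm1d: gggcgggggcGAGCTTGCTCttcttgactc
Ei24: tgccccgtgcggcccGGGCATGCCCagtgt
Polk: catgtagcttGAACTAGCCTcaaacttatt
Inka2: ctgtctgcccGGGCTTGTCTgccagcaggg
Rap2b: cgcgggcgacgtactGGGCATGCTCggctg
Gtse1: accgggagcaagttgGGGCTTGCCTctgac
On the minus strand, the stretches lie at chr10:117710925-117710954 for Mdm2, chr9:36797330-36797359 for Ei24 and chr13:96519399-96519428 for Polk. On the plus strand, they lie at chr11:85311112-85311141 for Ppm1d, chr3:105705367-105705396 for Inka2, chr3:61364525-61364554 for Rap2b and chr15:85859940-85859969 for Gtse1. The half-site of Mdm2 starts 186 bases before the annotated start, and those of Rap2b and Gtse1 start after it.

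The other definitions, chosen after matches had been seen, asked for a pair of half-sites. A pair that adjoins, with at most 2 mismatches in all and the central C and G of each half-site intact, was found in 0.326% of windows, in 3 of the 23 genes called lower and in 3 of the 36 not called. A pair with at most 1 mismatch and a spacer of up to 13 bases was found in 0.627% of windows, in 2 genes called lower and in 2 not called. The 6 genes with an adjoining pair are shown because they set called and uncalled members side by side. The pair is in capitals.
Trp73, called lower: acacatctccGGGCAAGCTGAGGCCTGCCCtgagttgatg
Zfp365, called lower: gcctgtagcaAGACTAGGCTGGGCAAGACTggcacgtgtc
Gtse1, called lower: gggaaaccggGAGCAAGTTGGGGCTTGCCT
Ccng1, not called: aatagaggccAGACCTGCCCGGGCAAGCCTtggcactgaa
Cdkn1a, not called: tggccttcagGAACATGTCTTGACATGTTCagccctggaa
Ckap2, not called: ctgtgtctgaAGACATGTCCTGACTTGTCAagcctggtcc
The minus-strand stretches lie at chr4:154097210-154097249 for Trp73, chr10:67912696-67912735 for Zfp365, chr11:40755452-40755491 for Ccng1 and chr8:22185993-22186032 for Ckap2. The plus-strand stretches lie at chr15:85859935-85859964 for Gtse1 and chr17:29090918-29090957 for Cdkn1a. Matches were thus found among called and uncalled members under each of the 3 definitions. A match is a description of letters, not of binding.

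Over all genes, the calls leaned to lower expression without p53. In the knockout, 214 genes were called lower and 40 higher, which is 0.747% and 0.14% of the genes tested, and 0.887% in either direction. A difference of more than 2-fold was seen in 188 of the lower and 32 of the higher genes. The 2 knockout libraries lay under both wild-type libraries in all 214 lower genes and above both in all 40 higher genes. A call favours such separation, and among all genes tested 21.3% lay under and 20.8% above. At an unadjusted p under 0.05 the number was 3760. The calls rest on few libraries: without wild-type library a, 30 genes were lower and 0 higher, and without library b, 38 were lower and 0 higher. DESeq2 on the same libraries called 764 lower (2.67%) and 548 higher (1.91%), a more even split, and edgeR with the replicate block called 1844 lower (6.44%) and 1606 higher (5.61%).

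**Figure D1:**
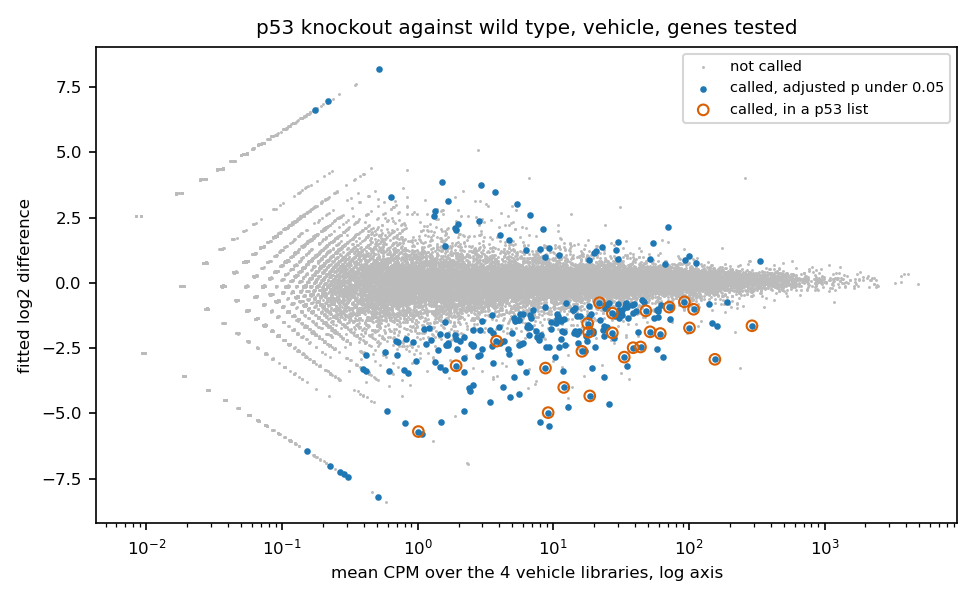
Mean CPM over the 4 vehicle libraries (log axis) against the fitted log2 difference, p53 knockout minus wild type, for the genes tested; blue points are the 254 called genes and orange rings the 25 of them in a p53 list. The rings all lie below 0.

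The genes that p53 is known to activate, set out as 6 lists with 71 members, were tested in full. The lists were chosen with earlier results of these data known, so their share of calls is not an independent test. Of the 71, 25 were called lower (35.2%, against 0.747% of all genes) and 0 higher, and DESeq2 called 37 lower and 0 higher. At an unadjusted p under 0.05, 46 were lower and 3 higher. With the replicate block 48 were called lower and 4 higher (67.6% and 5.63%, against 6.44% and 5.61% of all genes). The median log2 difference was -1.01, against 0.01 for all genes tested. Both knockout libraries lay under both wild-type libraries for 53 members (74.6%, against 21.3% of all genes), and above both for 6 members (20.8% of all genes). The other 12 members overlapped between the groups.

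Of the feedback and control genes, 5 of 10 were called lower and all 10 lay under wild type in both lines. Mdm2, the ubiquitin ligase that marks p53 for destruction, had 161 and 148 CPM in wild type against 44.7 in line 1 and 49.2 in line 2. It was 3.3-fold lower (log2 -1.72, SE 0.15, adjusted p = 0.0022). Mdm4, the relative of Mdm2 that blocks the p53 activation domain, had 446 and 437 CPM in wild type against 134 and 149 (log2 -1.64, SE 0.15, adjusted p = 0.0024). The 2 lines stood close together for both genes and far from wild type. Trp53inp1, a nuclear protein that aids p53 phosphorylation and autophagy, had 263 and 285 CPM in wild type against 41 and 31.2, and was 7.6-fold lower (log2 -2.93, SE 0.17, adjusted p = 0.00026). Zmat3, an RNA-binding zinc-finger protein, had 103 and 92.3 CPM against 27.3 and 23.6 (log2 -1.94, SE 0.14, adjusted p = 0.0011). Ppm1d, the phosphatase Wip1 that turns off the damage response, moved least of the 5, from 28.3 and 26.7 to 16.4 and 16.1 CPM (log2 -0.76, adjusted p = 0.039). Mdm4 lies on chromosome 1 and Zmat3 on chromosome 3, whose medians were lower in line 1 (-0.247 and -0.223, below). The log2 difference was -1.72 in line 1 and -1.56 in line 2 for Mdm4, and -1.84 and -2.05 for Zmat3. Ccng1, cyclin G1, had the widest gap between the lines in this list among the named members: 428 and 430 CPM in wild type, 70.6 in line 1 and 20.2 in line 2, with an adjusted p of 0.082. Rchy1, another ubiquitin ligase for p53, was not called (47.4 and 44.6 against 38.6 and 36.2 CPM, log2 -0.30).

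**Figure D2:**
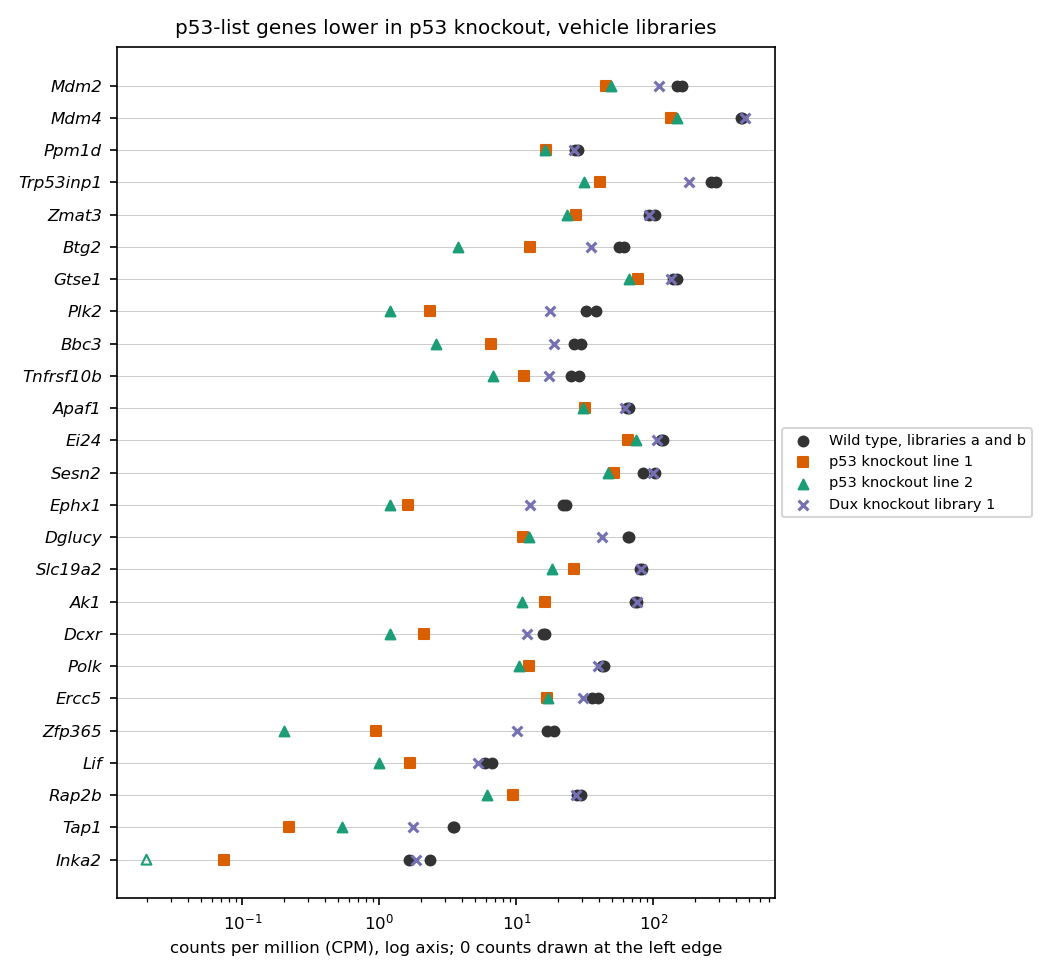
CPM in the vehicle libraries (log axis, 0 counts drawn at the left edge) for the 25 p53-list members called lower; black circles are wild-type libraries a and b, squares line 1, triangles line 2 and crosses Dux-knockout library 1. In every row the squares and triangles are left of the circles and of the cross.

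Of the arrest genes, 3 of 10 were called lower and Cdkn1a was not among them. Cdkn1a, which encodes the cyclin-dependent kinase inhibitor p21, had 78.8 and 78.7 CPM in wild type against 76.3 in line 1 and 59.9 in line 2 (log2 -0.21, SE 0.23, adjusted p = 0.76). Line 1 was close to wild type and line 2 somewhat under it. Btg2, an antiproliferative regulator of mRNA decay, fell from 60.9 and 56.1 to 12.6 in line 1 and 3.73 in line 2 (log2 -2.84, SE 0.53, adjusted p = 0.05, under the threshold before rounding). Plk2, a kinase of the polo family, fell from 38.4 and 32.3 to 2.34 and 1.2 CPM, a 20.1-fold difference (log2 -4.33, SE 0.59, adjusted p = 0.015). Gtse1, a microtubule-associated protein that shuttles p53 out of the nucleus, fell from 149 and 140 to 77.1 and 66.4 CPM (log2 -1.01, adjusted p = 0.034). Psrc1, a spindle protein, was at 149 and 156 CPM in wild type, 57.2 in line 1 and 24.4 in line 2, and did not pass the test (adjusted p = 0.081). Ckap2, also of the spindle, was at 188 and 194 against 161 and 106 CPM (adjusted p = 0.53). In the list, 2 members lay above wild type in both lines, Sfn at 7.69 and 6.81 against 17.8 and 11.1 CPM and Plk3 at 6.37 and 6.36 against 12.5 and 11.1 CPM; they are named after their values were seen.

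Of the death genes, 4 of 12 were called lower and all 12 lay under wild type in both lines. Bbc3, which encodes the BH3-only killer Puma, fell from 29.7 and 26.2 to 6.51 and 2.6 CPM (log2 -2.62, SE 0.41, adjusted p = 0.026). Tnfrsf10b, a death receptor for TRAIL, fell from 28.4 and 25 to 11.4 and 6.79 CPM (log2 -1.55, adjusted p = 0.026). Apaf1, the scaffold of the apoptosome, fell from 66.4 and 63.9 to 31.6 and 30.5 CPM (log2 -1.07, SE 0.12, adjusted p = 0.0059). These 3 genes show no overlap between groups, and the lines differ most for Bbc3. Ei24 fell from 117 and 114 to 65 and 74.6 CPM (log2 -0.72, adjusted p = 0.037), but its span overlaps another gene, Gm26787, and it is uncertain for that reason. Bax, the pore-forming executor, was not called (199 and 200 against 169 and 135 CPM, adjusted p = 0.35). Aen, a nuclease, was at 112 and 124 against 66.9 and 59 CPM (adjusted p = 0.082).

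Of the metabolism and redox genes, 6 of 16 were called lower. Ephx1, an epoxide hydrolase, fell from 21.9 and 23 to 1.61 and 1.2 CPM, 16-fold (log2 -4.00, SE 0.33, adjusted p = 0.0015). Dcxr, a carbonyl reductase, fell from 15.6 and 16.1 to 2.12 and 1.2 CPM (log2 -3.26, adjusted p = 0.017). Dglucy, an enzyme of D-glutamate breakdown, fell from 64.8 and 66.7 to 11.2 and 12.4 CPM (log2 -2.48, adjusted p = 0.018). Ephx1 is on chromosome 1, and its line 2 level was lower than that of line 1. Ak1, adenylate kinase, fell from 73.3 and 75.3 to 16.2 and 11 CPM (log2 -2.45, adjusted p = 0.021). Slc19a2, a thiamine transporter, fell from 83.1 and 79.3 to 26.2 and 18.1 CPM (log2 -1.87, adjusted p = 0.025). Sesn2, a sestrin that restrains mTORC1, fell from 103 and 84.6 to 51.9 and 46.5 CPM (log2 -0.93, adjusted p = 0.024). The members of highest level that were not called were Gpx1, at 278 and 262 against 211 and 234 CPM, and Ddit4, at 260 and 311 against 169 and 167 CPM (adjusted p = 0.41 and 0.23).

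The repair and nucleotide list gave the fewest calls, 2 of 9, and its median log2 difference was -0.04. Polk, a translesion polymerase, fell from 43.9 and 42.2 to 12.4 and 10.5 CPM (log2 -1.91, SE 0.24, adjusted p = 0.011). Ercc5, the endonuclease XPG of nucleotide excision repair, fell from 35.6 and 39.7 to 16.7 and 17 CPM (log2 -1.16, SE 0.12, adjusted p = 0.0044). Pcna, the sliding clamp of replication, was not called, at 248 and 269 CPM in wild type against 371 in line 1 and 282 in line 2 (adjusted p = 0.57).

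Of the other targets, 5 of 14 were called lower. Lif, the cytokine that is also added to this medium, fell from 5.9 and 6.66 to 1.68 and 0.999 CPM (log2 -2.23, SE 0.41, adjusted p = 0.047). Zfp365, a zinc-finger protein, fell from 18.8 and 16.7 to 0.95 and 0.2 CPM (adjusted p = 0.048). Rap2b, a small GTPase, fell from 27.8 and 29.5 to 9.43 and 6.06 CPM (log2 -1.89, adjusted p = 0.028). Tap1, a peptide transporter of antigen presentation, fell from 3.42 and 3.51 to 0.219 and 0.533 CPM (adjusted p = 0.015). Rap2b and Tap1 overlap other genes. Inka2, a kinase inhibitor, had 104 counts over the wild-type libraries and 2 over the knockout libraries, a ratio of 56.9 per scaled library with an exact 95% counting interval of 15.4 to 476. Sulf2 and Ptp4a3 had the highest levels among those not called (adjusted p = 0.27 and 0.18). In the p53 family, Trp73, the p73 gene, fell from 8.94 and 7.55 to 1.17 and 1.33 CPM (log2 -2.72, SE 0.27, adjusted p = 0.0037).

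Of the 49 called genes named here, 9 were called without wild-type library a, 9 without library b, 26 without line 1 and 22 without line 2. The replicate block takes the spread between the knockout lines out of the error. With it, all 49 passed, and so did 8 p53-list members given above as not called: Ccng1 (edgeR adjusted p = 1.7e-08), Psrc1 (6.6e-08), Ptp4a3 (5.3e-05), Aen (0.00037), Sulf2 (0.0071), Ckap2 (0.0092), Bax (0.013) and Ddit4 (0.016). In the p53 lists, the calls of Mdm2, Mdm4, Trp53inp1, Zmat3 and Ephx1 passed with each of the 4 libraries left out in turn, and outside them those of Trp73, Pla2g2f and Neurod1. Without wild-type library a, 6 members of the 6 lists were called lower, and without library b, 5; without line 1 it was 17 and without line 2 it was 9. The Dux-knockout count library stood above both p53-knockout libraries for 25 of the 25 called members, and for 203 of all 214 genes called lower. It did so for 68.7% of the 6112 genes, called or not, in which both p53-knockout libraries lay under wild type. In FPKM both Dux-knockout libraries did so for 25 of 25 members, for 196 of the 214 genes called lower and for 49.1% of the 6112. The 2 Dux-knockout libraries differed from each other: Btg2 was at 8.6 and 17.9 FPKM, against 15.8 and 14.3 in wild type, and Ephx1 at 0.271 and 0.502 FPKM, against 0.503 and 0.52.

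The lines were also fitted separately. Line 1 gave 134 genes lower (0.468%) and 34 higher (0.119%), and line 2 gave 129 lower (0.45%) and 23 higher (0.0803%). Both lines share the wild-type libraries, so they are not independent. Each line has 1 vehicle library, so calls by line, here and below, hold no spread of that line. A lone library was assumed to vary like the replicates of the other groups, drug groups included. Within the 6 p53 lists, 9 members were called lower in line 1 and 17 in line 2, with median log2 differences of -0.85 and -1.21. Line 2 had the lower CPM for 19 of the 25 called members. The same count over all genes was not made, so nothing particular to the lists is read from it. A direct test of line 1 against line 2 called 0 genes (edgeR), with 3702 at an unadjusted p under 0.05, and DESeq2 called 221 higher and 175 lower. Some uncalled members differed widely between lines. Eda2r, a receptor of the tumour necrosis factor family, had 66.1 and 68.9 CPM in wild type, 10.3 in line 1 and 0.233 in line 2. Phlda3, an inhibitor of Akt signalling, had 33.5 and 28.7 CPM in wild type, 5.12 in line 1 and 0.266 in line 2. Both lines were far under wild type for each, but their spread kept the edgeR adjusted p at 0.28 for Eda2r and 0.2 for Phlda3. With the replicate block, which takes that spread out of the error, it was 2e-09 and 4.2e-08. Eda2r and Phlda3 were picked after their values had been seen.

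**Figure D3:**
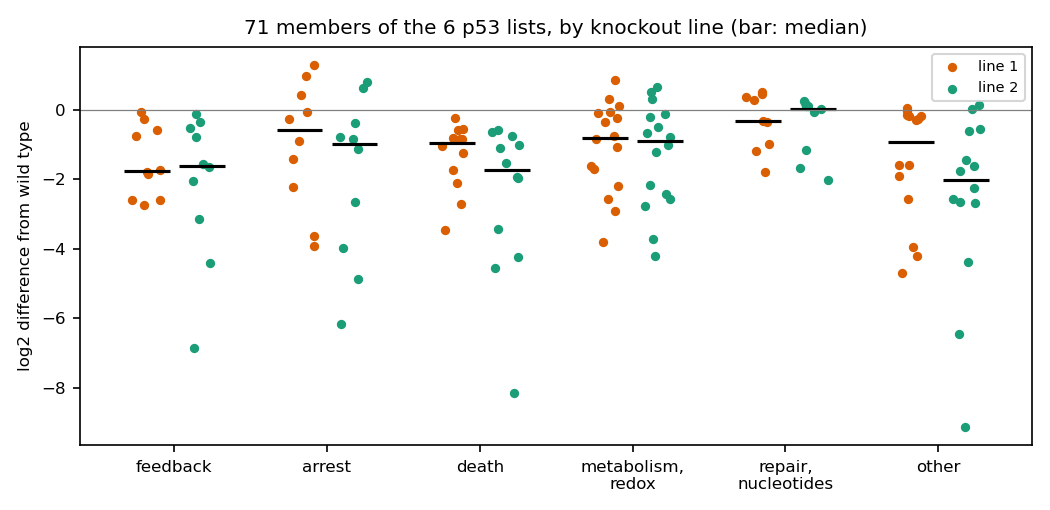
Fitted log2 difference from wild type for the 71 members of the 6 p53 lists, line 1 (orange) and line 2 (green) side by side, with black bars at the medians. The medians lie below 0 in both lines for each list except repair and nucleotides, where line 2 is at 0.02.

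Line 1 carried shifts over whole chromosomes. Against the wild-type mean, the median log2 difference over genes was -0.247 on chromosome 1 and -0.223 on chromosome 3, and 0.231 on chromosome 2, 0.262 on chromosome 6, 0.415 on chromosome 8 and 0.189 on chromosome 18. In line 2 the same chromosomes were at 0, 0.017, 0.005, -0.019, -0.09 and 0.009. Among genes of at least 10 CPM, the other 14 chromosomes of line 1 lay between -0.068 and 0.149, and the 20 chromosomes of line 2 other than Y between -0.083 and 0.072. Chromosome Y was kept apart for its few genes. Over its 23 genes tested the median was -0.001 in line 1 and 0 in line 2, but over its 5 genes of at least 10 CPM it was 0.376 in line 1 and -2.675 in line 2. These 5 carry names of predicted genes or pseudogenes: Gm20775, Gapdh-ps15, Mid1-ps1, Gm47283 and Gm21742. Mid1-ps1 was at 79.4 and 68.7 CPM in wild type, 95.9 in line 1 and 11.5 in line 2. Gapdh-ps15 was at 75.7 and 81.5 CPM in wild type, 118 in line 1 and 81.6 in line 2. The Y-linked genes Ddx3y, Eif2s3y, Kdm5d and Uty summed to 1.2 and 0.748 CPM in wild type, 0.219 in line 1 and 0.799 in line 2. Loss of chromosome Y was not tested. Of the 25 called p53-list members, 8 lie on chromosomes 1 and 3, which hold 11.4% of the genes tested and 42 of the 214 lower calls. Without the genes of the 6 shifted chromosomes, 15 of 47 members were called lower, and with the knockout libraries centred by chromosome, 24 of 71; that centring was chosen after the shifts were seen. Called genes named here that lie on the lowered chromosomes are Mdm4, Btg2, Ephx1, Slc19a2, Ercc5 and Wnt6 (chromosome 1) and Zmat3, Rap2b, Inka2, Nes and Fcrl5 (chromosome 3). On the raised ones lie Ak1, Gdap1l1, Neurod1 and Ano3 (chromosome 2) and Mocos (chromosome 18). With centring, 4 of the 49 named calls were lost: Btg2 (edgeR adjusted p = 0.069), Rap2b (0.051), Nes (0.051) and Gnat3 (0.05, above the threshold before rounding). Copy number was not measured.

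The largest falls outside the lists were of genes at low level. Casp14, a caspase of skin, had 54 counts over the wild-type libraries and 0 over the knockout libraries, so it was at least 9.82-fold lower against a floor of 3 counts per library. Pla2g2f, a secreted phospholipase, had 112 counts against 2 (ratio 61.2, exact 95% counting interval 16.6 to 512), and Ms4a10 82 against 2 (ratio 44.8, interval 12 to 376). Shisal1 had 60 against 2 (ratio 32.8, interval 8.69 to 277). These intervals cover counting error only and treat counts as independent. Slc5a1, the intestinal glucose transporter, fell from 15.9 and 15.2 to 0.585 and 0.2 CPM (log2 -5.32, SE 0.67, adjusted p = 0.011), and was 0.04 and 0.11 FPKM in the Dux-knockout libraries against 0.279 and 0.262 in wild type. Neurod1, a neurogenic transcription factor, fell from 7.23 and 5.91 to 0.146 and 0.399 CPM (log2 -4.55, SE 0.40, adjusted p = 0.0022); its span overlaps Cerkl, which has more counts than Neurod1. Ano3, a membrane scramblase family member, fell from 9.79 and 8.56 to 0.585 and 0.3 CPM, and Cpz, a secreted carboxypeptidase, from 3.11 and 2.69 to 0.0731 and 0.0666 CPM. As for Slc5a1, both Dux-knockout libraries were under both wild-type libraries in FPKM for Casp14, Shisal1, Neurod1, Ano3 and Cpz. Neurod1 was at 0.517 and 0.542 FPKM there against 1.75 and 1.41 in wild type, and Cpz at 0.029 and 0.037 against 0.136 and 0.116. For Pla2g2f and Ms4a10 the Dux-knockout and wild-type libraries overlapped.

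Most of the 10 largest rises were also of genes at low level. H2-Q6 and H2-Q7 are class I histocompatibility genes with near-identical copies, so their reads may be shared. H2-Q6 had 0 counts in wild type and 60 over the knockout libraries, at least 9.13-fold higher. H2-Q7 rose from 0.388 and 0.374 to 2.08 and 2.43 CPM (adjusted p = 0.012). Fcrl5, an Fc receptor-like gene, rose from 0.622 and 0.598 to 8.52 in line 1 and 5.23 in line 2 (log2 3.49, SE 0.53, adjusted p = 0.023). Slc35f2, a transporter for queuosine, rose from 25.1 and 26.5 to 123 and 106 CPM, the highest level of the 10 (log2 2.14, SE 0.34, adjusted p = 0.028). Serpinf1, which encodes the secreted factor PEDF, rose from 0.388 and 0.299 to 2.05 and 2.66 CPM (log2 2.77, SE 0.30, adjusted p = 0.0046). Elavl3, a neuronal RNA-binding protein, rose from 2.02 and 1.79 to 14.3 and 8.66 CPM, but the overlapping gene Gm49318 has more counts than Elavl3. Gdap1l1, Lhfpl5, Mocos and Gnat3 make up the 10, with log2 differences of 3.30, 3.12, 2.36 and 2.25.

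The cell-cycle, upstream and pluripotency lists are read against the 0.887% of all genes that were called, a share at which a list of their size may hold no call. With the replicate block, 5.61% of all genes were called higher and 6.44% lower, against 26.7% and 0% of the upstream regulators. Of 30 members of the lists of genes repressed through p21 and the DREAM complex, and of G1/S and replication genes, 0 were called (edgeR), with log2 differences between -0.84 and 0.83, and DESeq2 called 2 higher and 1 lower. At an unadjusted p under 0.05, 3 were higher and 1 lower, and with the replicate block 2 and 1 were called. The upstream regulators of p53 gave 0 of 15 calls (edgeR; 3 higher at an unadjusted p under 0.05, 2 higher by DESeq2 and 4 higher with the replicate block), with log2 differences from -0.28 to 0.70. The highest was Cdkn2a, which holds the Arf inhibitor of Mdm2, at 27 and 27.1 CPM in wild type against 45 and 42.6 (adjusted p = 0.074, and 0.0037 with the replicate block).

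Of 24 naive and general pluripotency genes, 0 were called in the fit over both lines (edgeR), with 22 within a 2-fold difference, and DESeq2 called 1 higher and 1 lower. At an unadjusted p under 0.05, 1 was higher and 5 lower. With the replicate block 2 were called higher and 6 lower (8.33% and 25%, against 5.61% and 6.44% of all genes). Nanog was at 1321 and 1273 CPM in wild type against 1193 and 956. Pou5f1 was at 899 and 929 against 1001 and 994 CPM. Dppa3, a maternal-factor gene named here after its values were seen, was at 0.544 and 0.972 CPM in wild type, 2.27 in line 1 and 22.7 in line 2, and was called in line 2 (adjusted p = 0.04) and not in line 1 (adjusted p = 0.36); the direct test between lines did not call it (unadjusted p = 0.0056), and over both lines it was called with the replicate block (adjusted p = 0.00018). Of 43 genes tested in 4 lists of early lineages, the replicate block called 4 higher and 9 lower. These shares are 9.3% and 20.9%, against 5.61% and 6.44% of all genes. In the main fit, 1 of the 43 was called (0.887% of all genes were). The 1 was Nes, an intermediate filament of neural progenitors, which rose from 15.8 and 18.7 to 47 and 35 CPM (log2 1.25, adjusted p = 0.04). By line, Nes and Pax6 were called higher in line 1, and Lama1 and Col4a1, basement membrane genes, lower in line 2. Pax6 was at 0.466 and 0.374 CPM in wild type, 3.36 in line 1 and 0.732 in line 2, and Col4a1 at 31.6 and 29 in wild type, 32.7 in line 1 and 8.66 in line 2. Pax6, Lama1 and Col4a1 are named after their values were seen. Wnt6, a ligand gene on chromosome 1, fell from 10 and 8.79 to 1.17 and 0.399 CPM (log2 -3.59, adjusted p = 0.034); in FPKM it was 0.766 and 0.66 in wild type and 0.214 and 0.636 in the Dux-knockout libraries.

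The 2-cell-stage genes, which mark a rare state of stem cells that resembles the early embryo and depends on Dux, gave 1 call. Of 16 tested, 1 was called higher (0.14% of all genes were) and 15 lay above wild type in both lines (20.8% of all genes did). The call was Zscan4a, a copy of the zinc-finger Zscan4 genes of that state that is annotated as an unprocessed pseudogene. Zscan4a had 0.388 and 0.411 CPM in wild type, 6.4 in line 1 and 4.59 in line 2 (log2 3.77, SE 0.53, adjusted p = 0.024). It had 0 counts in the Dux-knockout library. Zscan4c was at 1.17 and 1.5 against 9.61 and 8.82 CPM (adjusted p = 0.06), and Zscan4d at 0.971 and 1.31 against 8.81 and 8.62 CPM (adjusted p = 0.062). The summed CPM of the list was 8.2 and 8.38 in wild type, 51 and 48.6 in the knockout lines and 0.582 in the Dux-knockout library. The median log2 difference was 2.68, and 2.54 over the 13 genes with a count in wild type. DESeq2 called 8 of the 16 higher (1.91% of all genes were), and edgeR with the replicate block 10 (62.5%, against 5.61% of all genes). These genes are near-identical copies in part, and their values are uncertain where counting split reads.

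**Figure D4:**
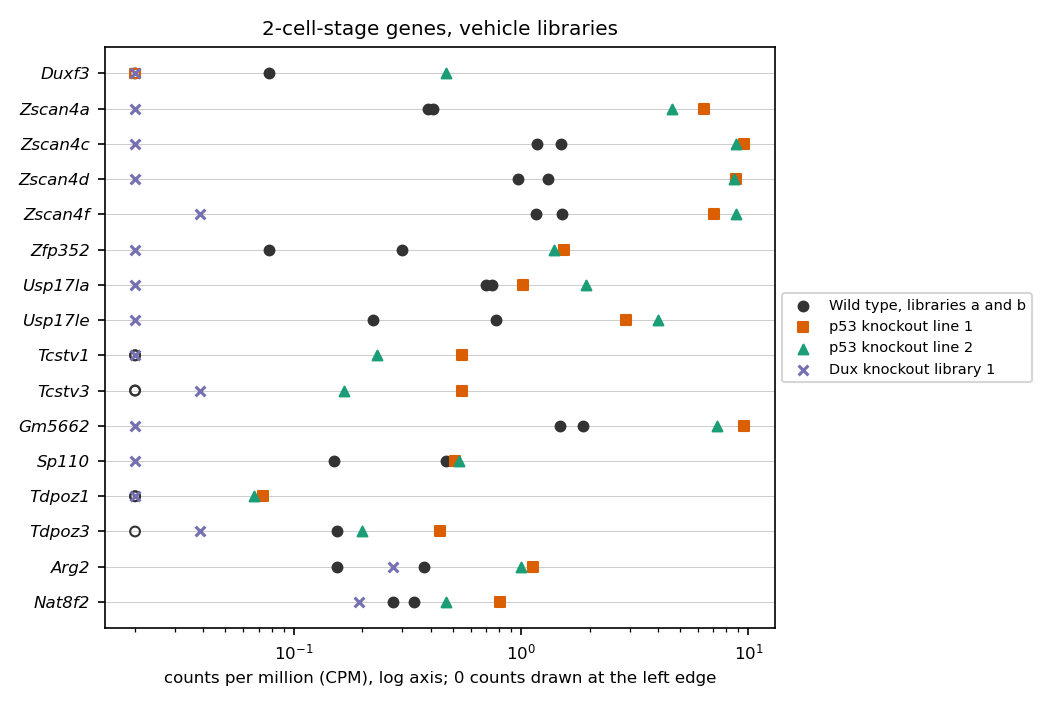
CPM of the 16 tested 2-cell-stage genes in the vehicle libraries (log axis, 0 counts drawn at the left edge); symbols as wild-type circles, line 1 squares, line 2 triangles and Dux-knockout library 1 crosses. The knockout symbols lie right of the circles in 15 rows, and the crosses are at 0 in 11.

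The germline list gave 1 call of 12 genes tested and the imprinted list 1 of 20 (0.887% of all genes were called). The germline list differed in sign by line, with a median log2 difference of -0.64 in line 1 and 0.79 in line 2, and a summed CPM of 388 and 438 in wild type, 254 in line 1 and 590 in line 2. Ddx4, a germ-cell RNA helicase, rose from 12.4 and 13 to 29.5 and 35.8 CPM (log2 1.36, SE 0.17, adjusted p = 0.009). Stra8 and Sycp3, meiosis genes named after their values were seen, were at 8.62 and 8.38 CPM against 18.2 and 61.1 CPM, and at 22.3 and 21 against 31.8 and 55 CPM, and were called in line 2 (adjusted p = 0.021 and 0.013) but not over both lines, unless with the replicate block (adjusted p = 9.8e-06 and 0.0018). Ndn, an imprinted gene, fell from 8.86 and 7.85 to 3.36 and 3.99 CPM (adjusted p = 0.041). Its span overlaps another gene that has more counts than Ndn itself. Of the other called genes named here, Mdm4, Apaf1, Ei24, Sesn2, Ephx1, Dglucy, Polk, Rap2b, Tap1, Trp73, Wnt6, Elavl3, Mocos, Slc5a1, Neurod1 and Ano3 also overlap a gene and are uncertain for want of strand. The overlaps differ in size. Over all count libraries used, the strongest overlapping gene had 0 counts for Mocos, 3 for Apaf1 and 18 for Slc5a1. These genes themselves had 3398, 46871 and 6736. For Elavl3 and Neurod1 the overlapping gene had more counts than the gene itself.

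Against the Dux-knockout vehicle group, with 1 usable count library, 1003 genes were called lower (3.5%) and 510 higher (1.78%) in p53-knockout cells, 5.28% in either direction. Both comparisons share the p53-knockout libraries. In FPKM, Mdm2 was at 4.88 and 4.59 in the Dux-knockout libraries, between wild type (7.56 and 6.84) and p53 knockout (1.98 and 2.25). Mdm4 was at 6.37 and 4.58 FPKM in the Dux-knockout libraries against 6.44 and 6.19 in wild type.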

How the data were processed

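The main values are the whole-number counts per Ensembl gene that the authors deposited, and the authors' FPKM values for the same libraries were used as an alternative. TopHat2, DESeq and DESeq2 and build mm10 are named in the submitters' processing notes, and versions, annotation and strand setting are not given in the sources used here. Count divided by FPKM followed the whole gene span, within 1%, for 98.2% of 9137 genes, against 0.7% for exonic length. Per the file headers, 1 count column of Dux-knockout vehicle cells is not used, because it equals that of another library in 54532 of 54532 genes; 6 columns of FPKM averages were not used either. That left 11 count libraries (23270358 to 56795858 counts) in 6 groups.

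Tests were edgeR 4.0.16 quasi-likelihood fits (R 4.3.3) with TMM scaling and filterByExpr (minimum count 10) over all 11 libraries, with Benjamini-Hochberg adjustment over 28643 genes and 5 residual degrees of freedom (4 with the knockout lines split). The SE is the log2 difference divided by the root of its F statistic. Alternatives used DESeq2 1.42.0 and limma 3.58.1 on log2(FPKM + 1). Gene names and positions came from GENCODE M21. A floor of 3 counts per library bounds folds against 0. The gene lists and members were chosen with earlier results of these data known. Named genes were Trp53, called members of the p53 lists with up to 2 uncalled ones of highest level per list, called members of other lists, and the 10 largest rises and 10 largest falls of at least 1 CPM. Of the genes this rule picks, 2 are not reported here.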

Additional observations from a re-analysis of the deposited data

Results flagged for a closer look

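The 2 knockout lines differed in sign from each other in a few chromosome medians. The difference was not tested, and the line 2 values of chromosomes 6 and 3 are close to 0. The median log2 difference was 0.262 in line 1 and -0.019 in line 2 for chromosome 6, 0.415 and -0.09 for chromosome 8, and -0.223 and 0.017 for chromosome 3.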

How the results depend on the processing

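Direction held for each of the 61 genes named by the rule above, under each alternative that tested it. It was not checked for the other genes named in the text. The number of calls did not hold. For p53 knockout against wild type (40 higher, 214 lower), it was 548 and 764 with DESeq2, 73 higher without a filter, 1 and 24 with only the 4 vehicle libraries, 5 and 38 on log2(FPKM + 1), 20 and 91 on log2(FPKM + 0.1), and 10 and 31 on FPKM without a filter; leaving out 1 library gave 0 to 34 higher and 30 to 136 lower. No paired analysis was possible because the wild-type columns carry no number; a replicate block over the knockout lines gave 1606 higher and 1844 lower. Line 1 (34 and 134) gave 627 and 801 with DESeq2, 83 and 229 without a filter, 3854 and 3763 with 4 libraries, 1 and 1 on log2(FPKM + 1), 3 and 22 on log2(FPKM + 0.1), 102 and 22 on FPKM without a filter, 18 and 71 without the shifted chromosomes, and 0 and 10 without either wild-type library. Line 2 (23 and 129) gave 291 and 745 with DESeq2, 52 and 231 without a filter, 2518 and 2945 with 4 libraries, 0 and 2 on log2(FPKM + 1), 4 and 45 on log2(FPKM + 0.1), 141 and 34 on FPKM without a filter, and 0 and 3 without either wild-type library. Line 1 against line 2 (0 and 0) gave 221 and 175 with DESeq2, 3716 and 3152 with 4 libraries, 86 and 116 on FPKM without a filter, and 0 and 1 with chromosome centring. With 4 libraries split by line, 1 residual degree of freedom rests on the wild-type pair. Against Dux knockout (510 and 1003), DESeq2 gave 2066 and 1854, log2(FPKM + 1) 311 higher and FPKM without a filter 202 higher; leaving out a p53-knockout line gave 433 to 436 higher and 740 to 805 lower. Of the 6 p53 lists (25 lower), 9 were called with 4 libraries, 12 on log2(FPKM + 1), 5 on FPKM without a filter, 48 with the replicate block and 15 without the shifted chromosomes, and 5 to 17 with 1 library left out. Of 49 named calls, DESeq2, RLE scaling, no filter and the block kept 49 and centring 45, while the 4 vehicle libraries kept 10 and FPKM without a filter 5; of the 37 tested on filtered FPKM, log2(FPKM + 1) kept 12 and log2(FPKM + 0.1) kept 23. Among genes of at least 10 CPM, line 1 medians were 0.253, 0.309, 0.376, 0.471, -0.222 and -0.242 on chromosomes 18, 2, 6, 8, 1 and 3, and on log2(FPKM + 1) 0.108, 0.124, 0.181, 0.272, -0.166 and -0.165; line 2 medians were 0.027, 0.05, 0.033 and 0.069 on chromosomes 18, 2, 1 and 3, and on log2(FPKM + 1) -0.009 on 18 and -0.047 on 6. The cause of these changes was not tested. Folds of genes near 0 counts are limited by depth.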
